A study of Homo sapiens with 22 samples.

Results

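The 7 cell-surface genes of prostate epithelium followed here were STEAP1, STEAP2, STEAP3, STEAP4, FOLH1, SLC45A3 and TRPM8. They were chosen by symbol, with 1 transcript per symbol, that of most reads on average, so that 7 of the 20239 genes in the files were members. All 7 passed the filter on low counts for exon reads in every comparison, and 5 passed it for intron reads. STEAP4 and TRPM8 did not pass for introns.

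The study asked which RNAs are associated with PSF (gene symbol SFPQ), which binds RNA in the nucleus and takes part in splicing, in 3 prostate cancer cell lines. LNCaP and 22Rv1 are androgen receptor positive prostate cancer lines grown in standard serum, and LTAD is the LNCaP-derived line kept in charcoal-stripped serum, a long-term androgen-deprived model. All cells were held in charcoal-stripped serum before receiving ethanol vehicle or 10 nM dihydrotestosterone (DHT), the potent androgen, for 24 h. For each line and treatment there was 1 input library and 1 library from PSF RNA immunoprecipitation (PSF-RIP), which gave 12 libraries in 6 pairs. These 12 held no control precipitation. A difference between PSF-RIP and input therefore cannot be told apart from effects of precipitation and library preparation. In LNCaP, PSF was also crosslinked to RNA by ultraviolet light and immunoprecipitated (CLIP), with 2 peak lists for vehicle and 2 for DHT, called CLIP 1 and CLIP 2 here. The sample titles set CLIP 1 and CLIP 2 apart by a number only. Whether both used the same antibody is not given there, so agreement between them is not read as agreement between replicates. The labels do not say whether libraries came from separate cultures, so each p-value measures only the spread between these libraries, which may be technical. In such bulk RNA, fewer expressing cells and less RNA per cell cannot be told apart.

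STEAP proteins are membrane proteins with a heme in their transmembrane part. STEAP2, STEAP3 and STEAP4 reduce iron and copper, and STEAP1, which lacks the reductase domain of its relatives, is a surface target of antibody-based therapy in prostate cancer. FOLH1 encodes prostate-specific membrane antigen, a glutamate carboxypeptidase used for imaging and radioligand therapy, and is known to be repressed by androgen. SLC45A3 encodes prostein, a transporter-family protein whose androgen-driven promoter takes part in ETS gene fusions. TRPM8 is a cold- and menthol-gated calcium-permeable channel found in prostate epithelium and sensory neurons.

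The inputs held between 1073228 mapped reads (LTAD vehicle) and 3014049 (22Rv1 vehicle), and the PSF-RIP libraries between 4641602 (LNCaP DHT) and 10439461 (22Rv1 vehicle), so low-count genes are measured better in PSF-RIP. All 8 luminal markers were found in all 12 libraries, with a summed level of 1491 to 6498 CPM (read counts scaled to a common library size). Of the basal markers, KRT14 and TP63 together reached at most 1.62 CPM. Of 4 neuroendocrine markers 3 were found, with a summed level of 125 to 187.5 CPM in 22Rv1, 41.2 to 75.7 in LNCaP and 61.4 to 151 in LTAD. Among them CHGA was at 0 in the inputs of LNCaP and LTAD and gave 11 to 81 reads in 22Rv1 libraries. SYP gave 127 to 751 reads in 22Rv1 libraries, 5 to 30 in LNCaP and 1 to 24 in LTAD. ENO2 gave 42 to 1100 reads in every library. Among stromal and leukocyte markers, COL1A1 and CD68 gave reads in every library, and the summed level of the list was 9.59 to 57.5 CPM. DHT responses were present in all lines: exon reads of FKBP5, an androgen receptor target, rose by a log2 fold of 3.14 (SE 0.23, higher in 3 of 3 lines, edgeR quasi-likelihood adjusted p = 5.35e-05) in the inputs. Exon reads of KLK3, which encodes prostate-specific antigen, differed with DHT by 2.86 on the log2 scale in LNCaP inputs, -0.04 in 22Rv1 and 1.88 in LTAD, and did not pass over the lines (1.83, SE 0.65, adjusted p = 0.293).

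PSF-CLIP peaks in LNCaP fell in 4 of the 7 genes, and a region in the first intron of STEAP2 was the only one present in all 4 lists. The peaks are the authors', as are their scores, they carry no strand, and a gene counted when at least 1 base overlapped. In CLIP 1 vehicle, 1 of 7 members held a peak, beside 43.1% of the tested genes, and in CLIP 1 DHT 4 of 7 did, beside 41.5%. CLIP 2 gave 1 of 7 with vehicle, beside 11.2%, and 4 of 7 with DHT, beside 26.4%. The vehicle member was STEAP2 in both lists, and the DHT members were STEAP2, STEAP4, FOLH1 and SLC45A3 in both lists. STEAP1, STEAP3 and TRPM8 held no peak in any list. Lists of unequal length (24242 and 7691 peaks with vehicle, 23580 and 13546 with DHT) were called separately, so a peak present in a single list is no measured change in binding. With the upper 50% of scores of each list, STEAP2 was the only member left in CLIP 2 DHT.

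The STEAP2 peak was among the highest scoring of CLIP 1. It ran over 3915 bases at chr7:89841038-89844952 with vehicle, with a score of 652, and over 3099 bases at chr7:89841523-89844621 with DHT, with a score of 791. These scores were at the 98.6th and 99.4th percentile of their lists. In CLIP 2 the same stretch was split into pairs of peaks, with scores of 75.1 and 73.6 with vehicle and of 154 and 63.5 with DHT. The CLIP 1 vehicle peak also took in 322 exon bases of the chosen transcript. The bases shared by all 4 lists were chr7:89842976-89843759 and chr7:89843899-89844519 (GRCh37), both inside intron 1. Of these, 41 of 784 and 0 of 621 bases lie in GENCODE exons. CLIP 2 DHT added peaks in intron 5 and in the last exon.

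A window of 160 bases from the middle of the longest exon-free stretch of each shared STEAP2 region is printed on the gene's strand, 5′ to 3′, because this was the member site found in every list. The windows touch no GENCODE exon. Capitals mark GAGGAA, the core of the consensus selected by PSF in vitro, wherever the gene strand holds it.
STEAP2 intron 1, chr7:89843387-89843546: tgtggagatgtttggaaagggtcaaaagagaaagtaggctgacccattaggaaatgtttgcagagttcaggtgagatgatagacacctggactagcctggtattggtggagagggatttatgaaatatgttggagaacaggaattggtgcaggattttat
STEAP2 intron 1, chr7:89844129-89844288: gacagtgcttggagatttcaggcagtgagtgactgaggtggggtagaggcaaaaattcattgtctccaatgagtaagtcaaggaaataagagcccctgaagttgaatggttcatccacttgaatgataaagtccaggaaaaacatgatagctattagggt
Neither window held GAGGAA. Their GC content was 42.5% in both, beside a median of 43.1% over the central 160 bases of all peaks in CLIP 1 vehicle.

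The DHT-list peaks of FOLH1 and SLC45A3 lay in introns and had lower scores. FOLH1 peaks were in intron 11 (chr11:49194227-49194694, score 64.0) and intron 8 (chr11:49197920-49198899, score 108) in CLIP 1, and in intron 5 (chr11:49212313-49212641, score 53.1) in CLIP 2, so that no FOLH1 site was in both lists. SLC45A3 had a peak at the gene start in both DHT lists, which overlapped at chr1:205648832-205649061. That overlap, in intron 1, scored 58.4 in CLIP 2, while the wider CLIP 1 peak of 1911 bases scored 69.6 and took in the first exon. STEAP4 peaks lay in the last exon, with a score of 117 in CLIP 1 and 56.3 in CLIP 2. Windows on the gene strand, 5′ to 3′, from the strongest FOLH1 site and from the SLC45A3 overlap show how unlike these sites were in base composition.
FOLH1 intron 8, chr11:49198330-49198489: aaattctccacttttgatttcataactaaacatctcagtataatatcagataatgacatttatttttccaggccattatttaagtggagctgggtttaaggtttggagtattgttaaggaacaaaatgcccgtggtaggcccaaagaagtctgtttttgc
SLC45A3 intron 1, chr1:205648867-205649026: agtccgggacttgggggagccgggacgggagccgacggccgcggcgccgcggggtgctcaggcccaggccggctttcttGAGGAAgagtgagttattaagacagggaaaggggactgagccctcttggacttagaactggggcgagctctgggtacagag
GC content was 35% in the FOLH1 window and 65% in the SLC45A3 window. GAGGAA occurred in the SLC45A3 window and not in the FOLH1 window, although the whole FOLH1 intron 8 peak held 1 copy. Only the gene strand was searched for the members. On either strand, GAGGAA occurred in the central 160 bases of 22.5% of CLIP 1 DHT peaks and 14.6% of CLIP 2 DHT peaks. The full in vitro consensus was in none of the member regions printed here, and at most 1 peak of a list held it in its central 160 bases.

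**Figure D1:**
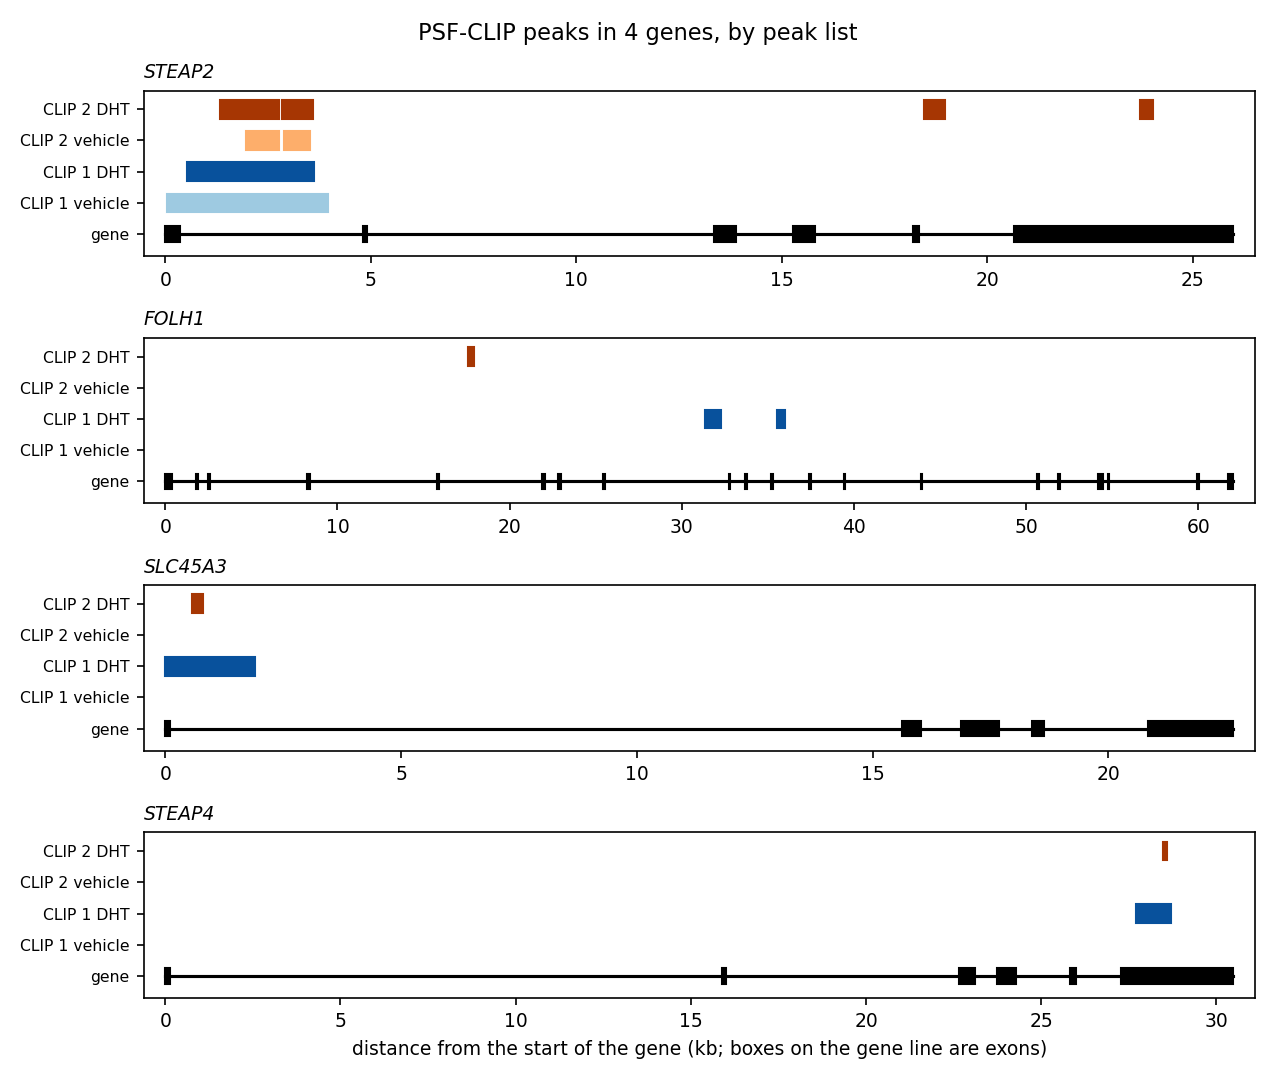
PSF-CLIP peaks of the 4 peak lists in STEAP2, FOLH1, SLC45A3 and STEAP4, by distance from the start of the gene in kb, with exons as boxes on the gene line. STEAP2 had peaks in intron 1 in all 4 lists, and the other 3 genes had peaks in the DHT lists.

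By mean input level, the genes fell into an abundant and a scarce set, which was the same in every line. Levels between genes are compared here as exon CPM, scaled by TMM, per kb of exon. Mean levels over the vehicle and DHT inputs were lowest at 16.8 CPM per kb, for FOLH1 in LTAD, among STEAP1, STEAP2, FOLH1 and SLC45A3, and highest at 10.9, for STEAP3 in LNCaP, among STEAP3, STEAP4 and TRPM8. Single inputs of different lines overlapped, with SLC45A3 at 9.89 in LTAD vehicle and STEAP3 at 10.55 in LNCaP vehicle.

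STEAP2 (transcript NM_001244944, chr7:89841000-89866992, plus strand) was the highest member in LNCaP. Its level was 288 CPM per kb with vehicle and 247 with DHT in LNCaP inputs, 90.6 and 157 in 22Rv1, and 72.5 and 127 in LTAD. The LNCaP inputs lay above all 4 others. By the edgeR quasi-likelihood fit over 13776 genes, the log2 fold of 22Rv1 over LNCaP was -1.19 (SE 0.26, adjusted p = 0.00243), and that of LTAD over LNCaP was -1.50 (SE 0.26, adjusted p = 0.00501). Without the LNCaP vehicle input these became -0.66 (adjusted p = 0.0736) and -0.97 (adjusted p = 0.0865), and without the LTAD vehicle input the latter was -1.24 (adjusted p = 0.107).

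STEAP1 (NM_012449, chr7:89783689-89794141, plus strand) lies next to STEAP2 on chromosome 7. It had 102 CPM per kb with vehicle and 105 with DHT in LNCaP inputs, 58.0 and 137 in 22Rv1, and 47.3 and 85.7 in LTAD. The lines overlapped, and no line difference passed the test: the log2 folds were -0.19 (SE 0.32, adjusted p = 0.639) for 22Rv1 over LNCaP and -0.70 (SE 0.34, adjusted p = 0.24) for LTAD over LNCaP. STEAP1 at 104 ± 2.29 (SD, n = 2) and SLC45A3 at 92.4 ± 86.3 (SD, n = 2) were neighbours in the LNCaP order of means. These SDs are over vehicle and DHT and hold the difference with DHT. The order of the genes swapped with treatment, as SLC45A3 had 31.4 CPM per kb with vehicle and 153 with DHT.

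FOLH1 (NM_001193471, chr11:49168187-49230222, minus strand) was graded over the lines. Its input level was 96.0 CPM per kb with vehicle and 62.1 with DHT in LNCaP, 54.2 and 17.7 in 22Rv1, and 22.7 and 10.9 in LTAD. Within each treatment LNCaP was highest and LTAD lowest. The log2 fold was -1.252 (SE 0.22, adjusted p = 0.00052) for 22Rv1 over LNCaP, -2.29 (SE 0.25, adjusted p = 0.00016) for LTAD over LNCaP, and 1.04 (SE 0.26, adjusted p = 0.00533) for 22Rv1 over LTAD. The call of 22Rv1 over LTAD was lost without the 22Rv1 vehicle input (0.46, adjusted p = 0.266), the LTAD vehicle input (1.03, adjusted p = 0.0541) or the LTAD DHT input (0.99, adjusted p = 0.0572). FOLH1B, a near-identical paralog also on chromosome 11, had at most 9 reads in an input and 49 in a PSF-RIP library, both 22Rv1 vehicle, against 243 and 1313 for FOLH1. No source used here says how reads common to both copies were assigned. The same holds for STEAP1 and STEAP1B, which had at most 2 reads in a library.

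SLC45A3 (NM_033102, chr1:205626981-205649630, minus strand) was highest in 22Rv1. Its input level was 31.4 CPM per kb with vehicle and 153 with DHT in LNCaP, 49.0 and 234 in 22Rv1, and 9.89 and 80.2 in LTAD. The log2 fold was 0.63 (SE 0.22, adjusted p = 0.0283) for 22Rv1 over LNCaP, -1.15 (SE 0.24, adjusted p = 0.0119) for LTAD over LNCaP and 1.78 (SE 0.23, adjusted p = 6.51e-05) for 22Rv1 over LTAD. The first of these fell short of the threshold when any single input was left out, with values of 0.40 to 0.80, and with library totals in place of TMM (0.38, adjusted p = 0.126). LTAD over LNCaP was -1.07 (adjusted p = 0.0801) without the LNCaP vehicle input, -1.30 (adjusted p = 0.0676) without the LNCaP DHT input and -0.93 (adjusted p = 0.103) without the LTAD vehicle input.

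STEAP3 (NM_182915, chr2:119981384-120023227, plus strand), the endosomal ferrireductase of iron uptake, was measured with 19 to 60 reads per input. It had 10.55 and 11.3 CPM per kb with vehicle and DHT in LNCaP, 5.97 and 4.52 in 22Rv1, and 6.41 and 3.49 in LTAD. The log2 fold was -1.07 (SE 0.34, adjusted p = 0.0207) for 22Rv1 over LNCaP and -1.21 (SE 0.37, adjusted p = 0.0685) for LTAD over LNCaP, both lower in 2 of 2 treatments. The former was -1.24 (adjusted p = 0.0866) without the 22Rv1 vehicle input, -0.99 (adjusted p = 0.13) without the 22Rv1 DHT input and -0.73 (adjusted p = 0.211) without the LNCaP DHT input.

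TRPM8 (NM_024080, chr2:234826043-234928166, plus strand) had no exon read in any of the 4 libraries of 22Rv1. LNCaP inputs held 1 read with vehicle and 11 with DHT, and LTAD inputs 0 and 7. The PSF-RIP libraries held 4 and 41 reads in LNCaP, 2 and 48 in LTAD, and 0 and 0 in 22Rv1. Set against 3 reads as the limit that a count of 0 allows over the 2 libraries, the level in 22Rv1 was at least 22.0-fold lower than in LNCaP and at least 13.9-fold lower than in LTAD in PSF-RIP. In the inputs the same limits were 5.03-fold and 3.42-fold. These limits cover counting error only.

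STEAP4 (NM_001205315, chr7:87905744-87936228, minus strand), a metalloreductase known from inflammation and adipose tissue, was all but missing from LTAD, with 1 read in each of 2 LTAD libraries and none in the other two. Its reads in LNCaP and 22Rv1 came almost wholly from the DHT libraries, as described under hormone below. Summed over both inputs, 22Rv1 held 2.47 times the LNCaP level (exact 95% interval 1.60 to 3.93, counting error only), and the fitted difference did not pass (edgeR adjusted p = 0.055).

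**Figure D2:**
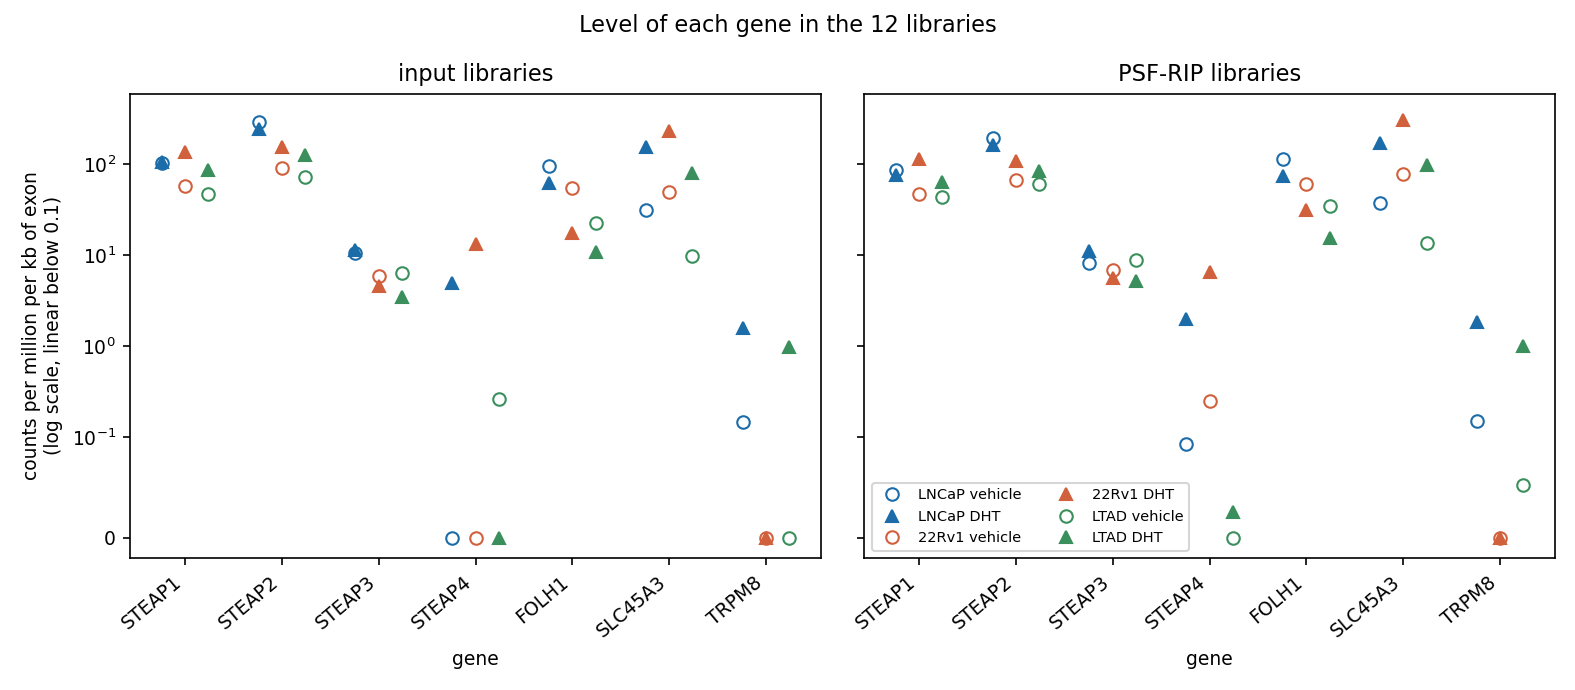
Exon CPM per kb for the 7 genes in the 12 libraries, inputs on the left and PSF-RIP on the right, on a log axis that is linear below 0.1. Open circles are vehicle, filled triangles DHT, and colours the 3 lines. STEAP1, STEAP2, FOLH1 and SLC45A3 sit above the other 3 genes in every line, and TRPM8 is at 0 in all 22Rv1 libraries.

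Of the 7 members, 1 was higher and 4 were lower in 22Rv1 than in LNCaP, where 49.9% of all tested genes were called, 26.6% higher and 23.4% lower. Between LTAD and LNCaP none was higher and 4 were lower, beside 8.22% of genes, 2.93% higher and 5.28% lower. In 22Rv1, 3 were higher and 1 was lower than in LTAD, beside 48.5% of genes, 26.3% higher and 22.2% lower. For STEAP4 and TRPM8 these calls rest on a fit to libraries at or near 0 reads, and several were lost when 1 input was left out. The members' median log2 fold was -1.07, -1.21 and 0.51 in these comparisons in the same order, beside -0.00283, -0.000954 and 0.02 over all genes.

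After DHT, SLC45A3 and STEAP4 rose and FOLH1 fell in both assays, and TRPM8 rose in PSF-RIP. In the inputs 2 members were called higher and 1 lower, where 0.624% of genes were called, 0.436% higher and 0.189% lower. In PSF-RIP 3 were called higher and 1 lower, where 2.9% were, 1.5% higher and 1.39% lower. The members include known androgen targets, and their direction is no independent evidence.

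SLC45A3 input reads went from 129 with vehicle to 642 with DHT in LNCaP, from 272 to 1141 in 22Rv1 and from 28 to 345 in LTAD. In each line the DHT library lay far above the vehicle library, and the ratio in CPM was smallest in 22Rv1 PSF-RIP, at 3.93. The log2 fold was 2.44 (SE 0.19, higher in 3 of 3 lines, edgeR adjusted p = 8.4e-05) in the inputs and 2.33 (SE 0.17, 3 of 3 lines, adjusted p = 4.29e-05) in PSF-RIP. Both calls held with any 1 line left out. By line, the input log2 differences were 2.29 in LNCaP, 2.25 in 22Rv1 and 3.001 in LTAD. Its intron reads rose as well, by a log2 fold of 1.74 (SE 0.23, adjusted p = 0.000795) in the inputs and 2.08 (SE 0.18, adjusted p = 3.63e-07) in PSF-RIP, beside 0.194% and 1.06% of genes called higher on introns in those assays (0.0338% and 0.203% lower, 0.228% and 1.26% in all). ELK4, the ETS gene downstream of SLC45A3 on the same strand, with which it forms read-through transcripts, went from 534 to 917 reads in LNCaP inputs, from 573 to 810 in 22Rv1 and from 236 to 915 in LTAD.

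FOLH1 input reads went from 319 with vehicle to 210 with DHT in LNCaP, from 243 to 70 in 22Rv1 and from 52 to 38 in LTAD. In CPM, every line was lower with DHT. The log2 fold was -1.06 (SE 0.19, lower in 3 of 3 lines, edgeR adjusted p = 0.027) in the inputs and -0.91 (SE 0.16, 3 of 3 lines, adjusted p = 0.00953) in PSF-RIP. Without 22Rv1 the values were -0.75 (adjusted p = 0.361) and -0.88 (adjusted p = 0.09), and without LTAD -1.05 (adjusted p = 0.0756) and -0.77 (adjusted p = 0.0784). Intron reads of FOLH1 were lower too, by -0.75 (SE 0.19, adjusted p = 0.149) in the inputs, which did not pass, and by -0.72 (SE 0.17, adjusted p = 0.037) in PSF-RIP, beside the share of genes given above for lower intron reads. That intron call was lost without 22Rv1 (-0.67, adjusted p = 0.126) and without LTAD (-0.71, adjusted p = 0.327).

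STEAP4 had 0 reads with vehicle and 87 with DHT in 22Rv1 inputs, 0 and 28 in LNCaP inputs, and 1 and 0 in LTAD inputs. In PSF-RIP the reads were 9 and 143 in 22Rv1, 2 and 36 in LNCaP, and 0 and 1 in LTAD. Thus both lines with DHT reads were clearly separated from their vehicle libraries, and LTAD was not. Against the 3-read limit, input levels with DHT were at least 33.0-fold higher in 22Rv1 and at least 9.18-fold higher in LNCaP. In PSF-RIP the ratio of summed reads over the 3 lines was 18.4 (exact 95% interval 10.0 to 37.5, counting error only). The fit called it in both assays (edgeR adjusted p = 0.00401 and 0.000924), and neither call held without 22Rv1 (adjusted p = 0.387 and 0.199), where the LNCaP and LTAD reads were left.

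TRPM8 reads with vehicle and DHT, given above, rose in PSF-RIP by a ratio of 12.1 in LNCaP (exact 95% interval 4.37 to 46.3) and 19.23 in LTAD (5.04 to 163). The edgeR fit called the difference in PSF-RIP (adjusted p = 0.00469) and not in the inputs (adjusted p = 0.168), where 1 read with vehicle stood against 18 with DHT. Without LTAD the PSF-RIP call was lost (adjusted p = 0.0656). The difference between the assays was not called (adjusted p = 1).

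STEAP1 and STEAP2 did not pass over the 3 lines, and their values with DHT differed between lines. STEAP1 input reads went from 163 to 171 in LNCaP, from 125 to 260 in 22Rv1 and from 52 to 143 in LTAD. The log2 differences were 0.04, 1.24 and 0.85 in the inputs and -0.16, 1.26 and 0.54 in PSF-RIP. STEAP2 input reads went from 2466 to 2151, from 1047 to 1592 and from 427 to 1132 in the same lines. Its log2 differences were -0.22, 0.79 and 0.80 in the inputs and -0.27, 0.69 and 0.50 in PSF-RIP. Both genes were thus flat or lower with DHT in LNCaP and higher with DHT in 22Rv1 and LTAD, in both assays. Over the 3 lines the input values were 0.70 (SE 0.27, adjusted p = 0.343) for STEAP1 and 0.45 (SE 0.21, adjusted p = 0.448) for STEAP2. In PSF-RIP they were at 0.56 (SE 0.23, adjusted p = 0.224) and 0.31 (SE 0.21, adjusted p = 0.458). Without LNCaP both passed in both assays: the input values were 1.08 (SE 0.21, adjusted p = 0.0264) and 0.80 (SE 0.14, adjusted p = 0.0117), and the PSF-RIP values 0.91 (adjusted p = 0.0113) and 0.60 (adjusted p = 0.0252). The difference in hormone response between lines was not tested. Each line had 1 library per treatment within an assay, and a fit over both assays would count the input and PSF-RIP library of a line and treatment as replicates.

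STEAP3 had small differences with DHT, of -0.29 (SE 0.30, adjusted p = 0.777) in the inputs and -0.20 (SE 0.21, adjusted p = 0.663) in PSF-RIP. By line, it was 0.10 and 0.46 in LNCaP, -0.39 and -0.28 in 22Rv1 and -0.85 and -0.76 in LTAD, for input and PSF-RIP in turn.

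**Figure D3:**
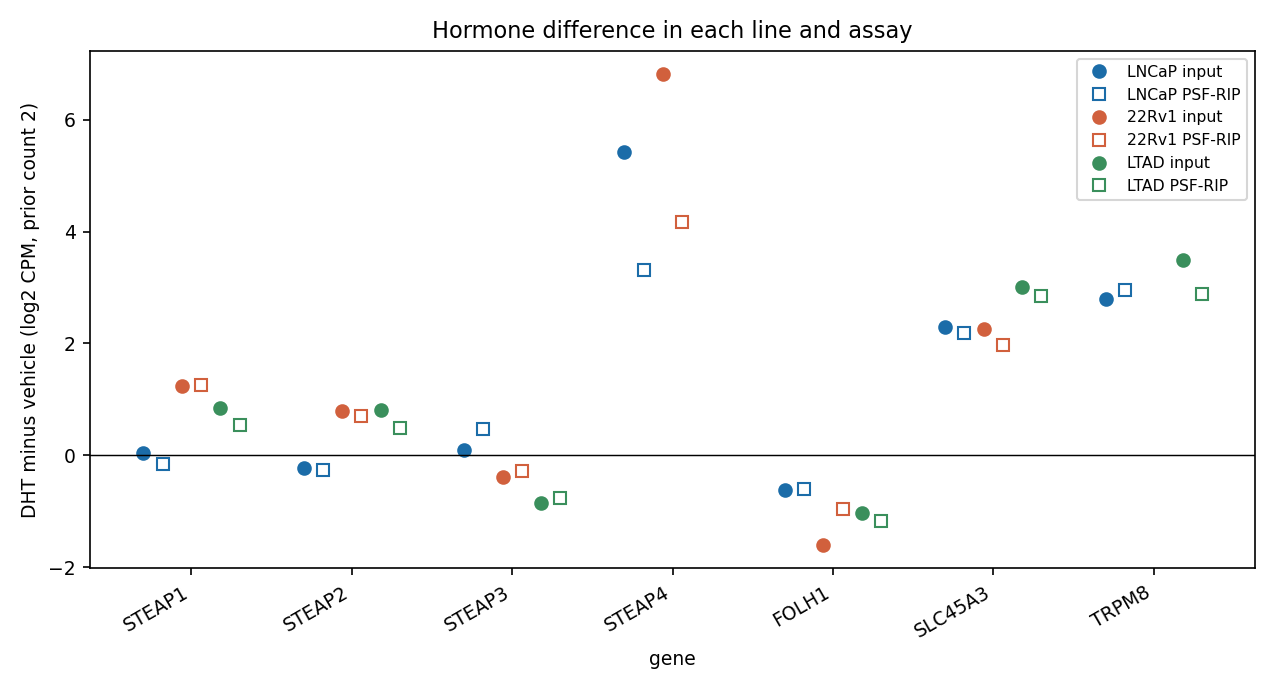
DHT minus vehicle in log2 CPM for each gene, with filled circles for input and open squares for PSF-RIP, coloured by line; pairs of libraries with at most 3 reads each are not drawn. SLC45A3 lies at 1.97 or more in all lines and FOLH1 below 0 in all lines, while STEAP1 and STEAP2 lie near or below 0 in LNCaP and above 0 in 22Rv1 and LTAD.

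Upstream sequence was searched for the palindromic androgen receptor element, made of AGAACA arms with a spacer of NNN, and for a single arm AGAACA on both strands. RefSeq promoters (GRCh38.p14) matched 6 of the 7 members, all but FOLH1, and 250 bases before the start were read. No member held either motif, beside 12.4% of 27305 promoters with AGAACA and 0.00366% with the full element. The stretch before SLC45A3, the member with DHT calls in every alternative, is printed from chr1:205680510-205680759 of that build, minus strand, 5′ to 3′, without capitals since no motif was found.
SLC45A3: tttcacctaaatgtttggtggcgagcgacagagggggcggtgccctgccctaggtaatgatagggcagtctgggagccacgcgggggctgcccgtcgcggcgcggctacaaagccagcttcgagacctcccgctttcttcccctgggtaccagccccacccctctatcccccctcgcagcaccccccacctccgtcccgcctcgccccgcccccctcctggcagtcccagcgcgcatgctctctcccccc

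In PSF-RIP over input, exon reads of FOLH1 and SLC45A3 were called higher and those of STEAP2 and STEAP4 lower. The pairs of STEAP4 did not share a direction, with PSF-RIP the higher in 3 of 6. These 4 calls of 7 stand beside 58% of all 13368 tested genes, 30.5% higher and 27.5% lower, so the members were called about as often as genes at large. Values are relative to the TMM-scaled library, and the median over all genes was 0.05. Scaling by library totals moved that median to 0.39.

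FOLH1 read counts in input and PSF-RIP were 319 and 1454 in LNCaP vehicle, 210 and 809 in LNCaP DHT, 243 and 1313 in 22Rv1 vehicle, 70 and 409 in 22Rv1 DHT, 52 and 654 in LTAD vehicle, and 38 and 358 in LTAD DHT. After scaling, PSF-RIP was the higher in 6 of 6 pairs. The log2 fold was 0.38 (SE 0.11, edgeR adjusted p = 0.00694), and without LTAD it was 0.31 (adjusted p = 0.0623). SLC45A3 was also higher in 6 of 6 pairs, at 0.34 (SE 0.12, adjusted p = 0.0162), with pair values from 0.15 in LNCaP DHT to 0.66 in 22Rv1 vehicle. Without 22Rv1 it was 0.24 (adjusted p = 0.142).

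STEAP2 read counts were 2466 and 6401 in LNCaP vehicle, 2151 and 4516 in LNCaP DHT, 1047 and 3767 in 22Rv1 vehicle, 1592 and 3703 in 22Rv1 DHT, 427 and 2881 in LTAD vehicle, and 1132 and 5070 in LTAD DHT. PSF-RIP was the lower in 6 of 6 pairs after TMM scaling, at -0.51 (SE 0.13, adjusted p = 0.00181). STEAP1 was lower in 6 of 6 pairs as well, at -0.31 (SE 0.15, adjusted p = 0.0806), and passed with the replicate block, the fit that pairs each PSF-RIP library with its own input (-0.31, adjusted p = 0.00135). Scaled by library totals, STEAP2 was at -0.18 (adjusted p = 0.243) and STEAP1 at 0.02 (adjusted p = 0.91), where the median gene was at 0.39. Thus both lay below the median gene under either scaling, while STEAP1 had no stable sign.

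STEAP4 was at -0.996 (SE 0.33, adjusted p = 0.0136), which rests on the DHT pairs: 87 input and 143 PSF-RIP reads in 22Rv1, and 28 and 36 in LNCaP. The vehicle and LTAD pairs held at most 9 reads in a library, and the 3 of 6 pairs with PSF-RIP the higher were among them. The call was lost without LNCaP (-0.89, adjusted p = 0.0625), without 22Rv1 (-1.29, adjusted p = 0.0859), with DESeq2 (-1.05, adjusted p = 0.415) and with library totals (-0.65, adjusted p = 0.0958). STEAP3, at 0.15 (SE 0.17, adjusted p = 0.46), and TRPM8, at 0.15 (SE 0.38, adjusted p = 0.765), did not pass, and STEAP3 was the higher in 4 of 6 pairs. SFPQ's own transcript was higher in 6 of 6 pairs, at 0.99 (SE 0.08, adjusted p = 2.04e-09).

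Whether the PSF-RIP over input ratio differed between lines or with DHT was tested for all 7 members. None was called in 22Rv1 against LNCaP, LTAD against LNCaP or DHT against vehicle, and edgeR called 0 of 13776 genes (0%) in each, with 806, 716 and 225 genes at an unadjusted p under 0.05. DESeq2 called 5, 2 and 0 genes, and the replicate block 413, 275 and 7, with 0 members in each. The largest of the member differences among the abundant genes were 0.33 (SE 0.29) for SLC45A3 in 22Rv1 over LNCaP and 0.32 (SE 0.32) for FOLH1 in LTAD over LNCaP.

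Intron reads of STEAP1 were higher in PSF-RIP than in input, while its exon reads were not. Input and PSF-RIP intron reads of STEAP1 were 67 and 534 in LNCaP vehicle, 54 and 363 in LNCaP DHT, 40 and 406 in 22Rv1 vehicle, 59 and 412 in 22Rv1 DHT, 15 and 272 in LTAD vehicle, and 27 and 513 in LTAD DHT. PSF-RIP was the higher in 6 of 6 pairs, and the log2 fold was 1.10 (SE 0.17, edgeR adjusted p = 7.24e-05), the only call among 5 members tested, beside 19.6% of 11387 genes, 10.9% higher and 8.77% lower. The intronic share of STEAP1 reads was 15.9% to 29.1% in the inputs and 36.4% to 50.4% in PSF-RIP, with no overlap. In the shallowest library, LTAD vehicle input, the share was 22.4% (exact Clopper-Pearson 95% interval 13.1% to 34.2%).

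The intronic share of STEAP2 was 10.0% to 15.7% in the inputs and 15.1% to 23.0% in PSF-RIP, higher in 6 of 6 pairs. Its intron reads did not pass against other genes' introns (0.08, SE 0.15, adjusted p = 0.731), where the median gene was at 0.06. Over all genes the intronic share was also higher in PSF-RIP in every pair. In 22Rv1 vehicle, for example, summed intron and exon reads were 403193 and 2212988 in the input, and 2207309 and 7617212 in PSF-RIP. FOLH1 had the opposite order, with an intronic share of 46.5% to 62.8% in the inputs and 34.2% to 55.2% in PSF-RIP, lower in PSF-RIP in 6 of 6 pairs, and ranges that overlapped. In the inputs its pooled share of 54.3% was the largest among the 4 abundant genes, while in both 22Rv1 PSF-RIP libraries STEAP1 had the larger share, 45.2% against 38.8% with vehicle and 36.4% against 34.2% with DHT. SLC45A3 shares were 7.46% to 26.3% in the inputs and 7.19% to 19.7% in PSF-RIP.

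**Figure D4:**
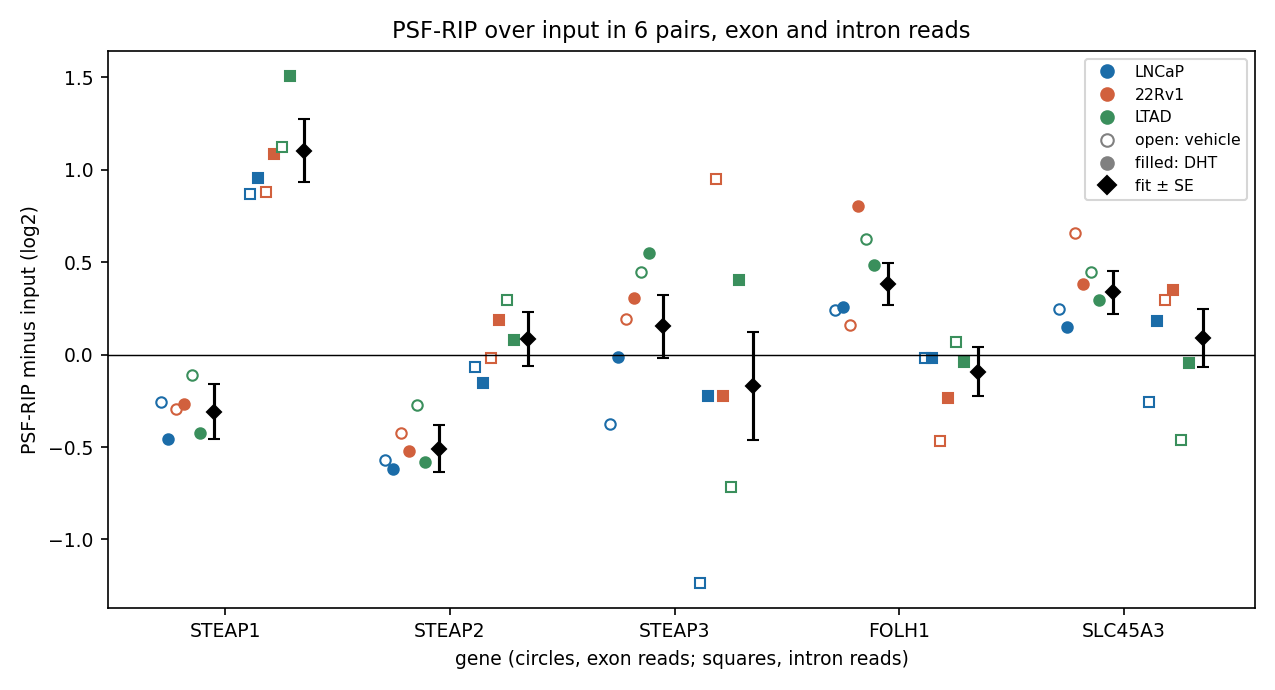
PSF-RIP minus input on the log2 scale for 5 genes in the 6 pairs, with circles for exon reads and squares for intron reads, open for vehicle and filled for DHT; black diamonds are the fitted log2 folds ± SE. STEAP1 exon reads lie below 0 in all pairs and its intron reads between 0.87 and 1.51.

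Single introns were then tested one by one, a step chosen after the data were seen. Of 55 member introns listed, 25 passed the filter on low counts; 3 were called higher and 4 lower, beside 21% of 18671 introns tested, 11.8% higher and 9.21% lower. Introns are numbered from the 5′ end of the gene.

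In STEAP1, intron 4 held 2368 of the 2500 PSF-RIP intron reads. It had 211 input reads over the 6 pairs, was higher in 6 of 6 pairs, and had a log2 fold of 1.33 (SE 0.19, edgeR adjusted p = 4.42e-05). This call held with any 1 line left out, with the replicate block and with no filter on low counts. Intron 1 of the same gene went the other way, with 48 and 113 reads, lower in 6 of 6 pairs at -0.95 (SE 0.30, adjusted p = 0.0283). That call was lost with no filter (-0.35, adjusted p = 0.795), with the replicate block (-0.85, adjusted p = 0.0628) and without LNCaP (-0.996, adjusted p = 0.106), 22Rv1 (-0.68, adjusted p = 0.18) or LTAD (-1.10, adjusted p = 0.0729). Introns 2 and 3 had 1 and 2 input reads and were not tested. Of the 2398 bases of intron 4, 310 lie in GENCODE exons, and the part of those exons in its reads was not tested. Intron 4 lies at chr7:89791393-89793790 and intron 1 at chr7:89783858-89789071, and no CLIP peak touched either. Their ends are printed to identify them, 30 bases from each, with the splice dinucleotides in capitals.
STEAP1 intron 1, first bases: GTgagtcccttgaatcgttctcactggccg
STEAP1 intron 1, last bases: acatgaaagtaattatttttatttttacAG
STEAP1 intron 4, first bases: GTaaataatatataaaataaccctaagagg
STEAP1 intron 4, last bases: atcttcaccaattttgtttttcttttgcAG

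FOLH1 introns split in both directions. Intron 14 (chr11:49179596-49186256) had 62 input and 909 PSF-RIP reads and was higher in 6 of 6 pairs, at 1.74 (SE 0.30, adjusted p = 0.000377). Intron 5 (chr11:49208322-49214344) had 406 and 931 reads and was lower in 6 of 6 pairs, at -1.01 (SE 0.17, adjusted p = 0.000274). Introns 1 and 3 were also called lower, at -0.92 (SE 0.26, adjusted p = 0.0144) and -0.93 (SE 0.30, adjusted p = 0.0327). The other 9 tested introns of FOLH1 lay between -0.72 and 0.73 and did not pass. The call of intron 14 held with any 1 line left out, with the replicate block and with no filter. With no filter, the lower calls were all lost, with intron 5 at -0.38 (adjusted p = 0.256), while the median over all introns moved from 0.14 to 0.65. The call of intron 1 was lost without LNCaP (-0.78, adjusted p = 0.229) and without 22Rv1 (-0.86, adjusted p = 0.0564). The call of intron 3 was lost without LNCaP (-0.76, adjusted p = 0.246), without LTAD (-0.85, adjusted p = 0.143) and with the replicate block (-0.81, adjusted p = 0.0687).
FOLH1 intron 14, first bases: GTatataattacatataatttaagaaaacc
FOLH1 intron 14, last bases: tattctctttttttcttttaatttgtgtAG

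In SLC45A3, intron 3 was higher, with 41 and 342 reads and a log2 fold of 1.04 (SE 0.30, 6 of 6 pairs, adjusted p = 0.018), which was lost without 22Rv1 (0.94, adjusted p = 0.0714). Of its 706 bases, 361 lie in GENCODE exons. Intron 1 of SLC45A3, which holds the CLIP overlap, was at -0.40 (SE 0.21, adjusted p = 0.175), and at -0.76 (adjusted p = 0.0219) without 22Rv1. Intron 1 of STEAP2, with peaks in all 4 CLIP lists, had 952 input and 4158 PSF-RIP reads and was at -0.03 (SE 0.15, adjusted p = 0.927). It carried 4158 of the 6575 PSF-RIP intron reads of STEAP2, and 1319 of its 4445 bases lie in GENCODE exons. With no filter it was at 0.60 (adjusted p = 0.000114), close to the median intron at that setting. The other 4 STEAP2 introns lay between -0.67 and 0.57 and did not pass.

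The members' first introns, tested in STEAP1, STEAP2, STEAP3, FOLH1 and SLC45A3, were at -0.95, -0.03, -0.23, -0.92 and -0.40, and the 3 introns called higher were later ones. Of the 4 called lower, 2 were first introns (STEAP1, FOLH1) and 2 were later ones (FOLH1 introns 3 and 5), and STEAP2 intron 2, at -0.67, lay below its first intron. Over all genes the median was -0.04 for 4532 first introns and 0.21 for 14139 later ones. Across the 25 member introns, which share their libraries, Pearson r with the log2 fold was -0.00592 for GC content and -0.411 for log10 length, beside 0.00184 and 0.0192 across all 18671. Of the 3 member introns called higher, STEAP1 intron 4 had 35.7% GC, FOLH1 intron 14 had 40% and SLC45A3 intron 3 had 58.4%. The median was 43.6% for all introns called higher.

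**Figure D5:**
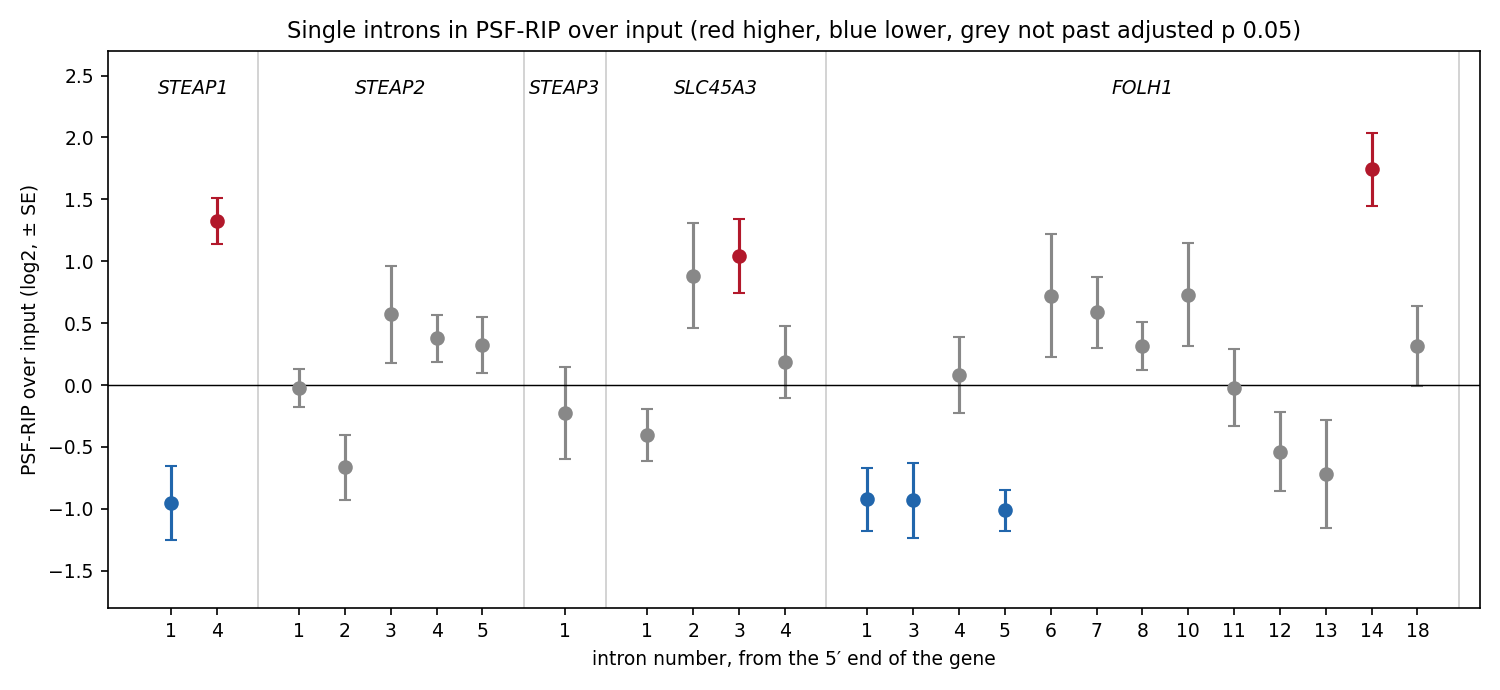
Log2 fold of PSF-RIP over input ± SE for the 25 tested introns of 5 genes, numbered from the 5′ end. Red points were called higher (STEAP1 intron 4, SLC45A3 intron 3, FOLH1 intron 14), blue points lower, and grey points did not pass.

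Genes related in function were taken from 4 lists, and each count of calls stands beside the share over all genes. None of the 24 tested iron and copper handling genes, 13 folate and glutamate peptidase genes or 12 TRP channel genes was called after DHT in the inputs, where 0.624% of all genes were. Of 25 tested genes of the other prostate surface proteins, KCNN2, a calcium-activated potassium channel, rose by 2.13 (SE 0.26, 3 of 3 lines, edgeR adjusted p = 0.00307), and CLDN4, a tight-junction claudin, fell by 0.60 (SE 0.11, 3 of 3 lines, adjusted p = 0.0375). After DHT in PSF-RIP, 4 of these surface genes were higher and 1 lower, 1 folate gene was lower, and no iron and copper or TRP gene was called, beside 1.5% of all genes higher and 1.39% lower. In PSF-RIP over input, where 30.5% of all genes were higher and 27.5% lower, 4 of 24 iron and copper genes were higher and 9 lower, with FTL and FTH1, the ferritin subunits, at -3.15 (SE 0.10, adjusted p = 1.66e-16) and -2.73 (SE 0.21, adjusted p = 5.6e-10). In the folate list 4 of 13 were higher and 3 lower, 5 of 12 TRP genes higher and 1 lower, and 6 of 24 other surface genes higher and 6 lower. With 58% of all genes called, 12 of 24 surface and 7 of 13 folate genes lie near the general share. The same holds for the iron and copper and the TRP calls, taken in both directions. ERBB2, a receptor tyrosine kinase, was at 0.73 (SE 0.09, adjusted p = 4.82e-07).

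Against LNCaP, line differences among these genes ran as follows. In 22Rv1, where 26.6% of all genes were higher and 23.4% lower, 5 of 24 iron and copper genes were higher and 7 lower, 3 of 13 folate genes higher and 7 lower, 6 of 12 TRP genes higher and 4 lower, and 8 of 25 other surface genes higher and 8 lower. The 12 of 24 iron and copper genes called lie near the general share of 49.9%. TRPV6, an epithelial calcium channel, had 0 reads in both 22Rv1 inputs against 16 and 26 in LNCaP. TMEFF2, a transmembrane proteoglycan, was 5.29 (SE 0.21, adjusted p = 1.41e-08) higher in 22Rv1, and SLC30A4, a zinc transporter, was at -5.04 (SE 0.18, adjusted p = 6.45e-09). In LTAD, where 2.93% of all genes were higher and 5.28% lower, 11 of 25 other surface genes were lower and 1 higher, 4 of 13 folate genes lower and 1 higher, and 1 of 12 TRP genes lower and none higher. Among 24 iron and copper genes 3 were lower and none higher, with TFRC, the transferrin receptor, at -1.49 (SE 0.19, adjusted p = 0.000726).

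The genes whose log2 levels ran most like a member over the 6 inputs, among 6888 genes at or above the median level, were RBL2 for STEAP2 (Pearson r = 0.992), HOOK3 for STEAP1 (0.988), SLC19A1 for STEAP3 (0.987), SRPK1 for STEAP4 (0.972), CNNM3 for FOLH1 (0.993), TBRG1 for SLC45A3 (0.988) and THUMPD1 for TRPM8 (0.996). With 6 inputs from 3 lines such values describe these libraries. Those of STEAP4 and TRPM8 rest on inputs that mostly held 0 or 1 read. Among the members, FOLH1 and STEAP3 had r = 0.898 and STEAP1 and SLC45A3 r = 0.819, and the adjacent STEAP1 and STEAP2 had r = 0.793.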

How the data were processed

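Per the submitters' processing notes, reads were handled with Bowtie2 2.2.6, TopHat2 2.1.0 and Bowtie on hg19 (GRCh37). The authors deposited raw read counts per RefSeq transcript, intron and antisense feature for each library, with 1 the lowest count listed, and a score per CLIP peak; no source used here gives the strand setting or how reads shared by paralogs were assigned. The 7 members and all gene lists were chosen with earlier results of these data known. Named genes were the members, KLK3, FKBP5 and SFPQ as references, up to 3 called genes with the smallest p per list, the genes most alike over inputs and near-identical or overlapping genes.

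One transcript per symbol was kept by highest mean count. The edgeR 4.0.16 quasi-likelihood test (R 4.3.3, TMM, expression filter, Benjamini-Hochberg over all genes, threshold 0.05) was fitted to all 12 libraries: line, treatment and assay for PSF-RIP over input, and line and treatment each with an assay interaction otherwise. Intron reads were summed per gene, and single introns were fitted in a model added after the data were seen. SE is the log2 fold over the square root of F. Values per line or pair are log2 CPM with a prior count of 2. The models were tested on simulated data. Pairs follow line and treatment. Residuals of input and PSF-RIP from line and treatment correlated at 0.331 to 0.376 across genes. The replicate block is therefore a fit with the pair as a term. The main fits pooled the spread of both assays without that term, so their p-values treat these residuals as independent. Alternatives were DESeq2 1.42.0, no filter, library totals, the longest transcript, the replicate block, each assay alone and leaving out each line or library. A second LNCaP set (12 columns of other tables) was not used.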

Additional observations from a re-analysis of the deposited data

Results flagged for a closer look

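The DHT values of STEAP2 and STEAP3 had opposite signs between lines in both assays, and the difference between lines was not tested. For STEAP2, the mean of the input and PSF-RIP log2 responses was 0.9864 higher in 22Rv1 than in LNCaP and 0.8946 higher in LTAD than in LNCaP. STEAP2 was lower with DHT in both LNCaP assays and higher in both assays of the other lines. For STEAP3 the same contrast was -0.6153 for 22Rv1 against LNCaP and -1.088 for LTAD against LNCaP, at 19 to 60 input reads. Input and PSF-RIP of a line share a treatment, and the labels do not say whether they share a culture. Across 10 sets of 6 pair values no single pair stood apart from the rest.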

How the results depend on the processing

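Of 225 counts recomputed under another setting, 167 stayed within 1.5 times and 58 did not; of 472 values for single genes or introns, 371 kept direction and side of the threshold, 57 lost the call, 19 gained one and 25 changed sign. Depth limits STEAP4 and TRPM8 most, and with 1 library per line, treatment and assay a line left out removes all its evidence. The cause of the changes below was not tested. The single-intron fit and its alternatives were chosen after seeing the data.

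With DHT in input, 86 genes became 142 with DESeq2, 397 with no filter and 169 with only that assay. With DHT in PSF-RIP, 399 became 948 with no filter and 190 with only that assay, and 4 members became 2 with DESeq2. DESeq2 gave no adjusted p for STEAP4 or TRPM8 there, so the 2 lost calls are missing values. DESeq2 called 3 of 5 members for 22Rv1 over LNCaP and 2 of 4 for 22Rv1 over LTAD. Intron DHT calls went from 27 to 94 in input with no filter, with 2 members in place of 1 there and with DESeq2, and from 149 to 46 (DESeq2) or 274 (no filter) in PSF-RIP. Single introns went from 3928 to 10188 with no filter and member introns from 7 to 11. Without the first intron, STEAP3 and SLC45A3 had a higher intronic share in 3 pairs of PSF-RIP and input, not 1. Members in CLIP 2 DHT went from 4 to 1 with the upper 50% of scores.

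For differences in PSF-RIP over input, calls of 0 became 5 (DESeq2), 13 (no filter) and 413 (replicate block) for 22Rv1 over LNCaP, 2, 5 and 275 for LTAD over LNCaP, and 7 with the replicate block for DHT, with 0 members each time. Among member exon values, the replicate block changed the call of STEAP1 in PSF-RIP over input (-0.31) and no other. No paired analysis was possible for CLIP peaks because that result comes from no test.

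Leaving out 1 line gave 6348 to 7306 genes and 3 members for PSF-RIP over input, 24 to 122 and 1 to 5 for DHT in input, 94 to 455 and 2 to 6 for DHT in PSF-RIP, 1026 to 1843 and 1 for introns in PSF-RIP over input, 16 to 30 and 1 for intron DHT in input, 70 to 173 and 1 to 3 for intron DHT in PSF-RIP, and 2190 to 3640 and 5 to 6 for single introns. Leaving out 1 library gave 4516 to 5111 genes and 2 to 3 members for 22Rv1 over LNCaP, 285 to 434 and 1 to 3 for LTAD over LNCaP, 4301 to 5120 and 1 to 3 for 22Rv1 over LTAD, and 0 to 1 genes and 0 members for differences in PSF-RIP over input.

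Signs changed as follows, given as the range over libraries or lines left out where that was the setting. With library totals, STEAP1 in PSF-RIP over input became 0.022, and STEAP2 and STEAP3 in 22Rv1 over LTAD -0.049 and -0.233; this scaling moved the all-gene median of 22Rv1 over LNCaP from -0.00283 to -0.26. With DESeq2, TRPM8 in PSF-RIP over input became -0.069 and STEAP4 in LTAD over LNCaP 0.368. STEAP3 ranged from -0.00347 (without LTAD) to 0.365 in PSF-RIP over input and from -0.536 to 0.111 (without LTAD) for DHT in PSF-RIP. In 22Rv1 over LNCaP, STEAP1 ranged from -0.725 to 0.306 (without the LNCaP vehicle input), with 0.116 without the 22Rv1 vehicle input, and STEAP4 from -4.764 (without the 22Rv1 DHT input) to 4.384. STEAP4 ranged from -9.485 to 6.153 (without the LTAD DHT input) in LTAD over LNCaP and from -4.838 (without the LTAD DHT input) to 10.89 in 22Rv1 over LTAD, with -0.0989 without the 22Rv1 DHT input. In 22Rv1 over LTAD, STEAP3 ranged from -0.285 (without the LTAD DHT input) to 0.532, with -0.0322 without the 22Rv1 vehicle input. For intron reads in PSF-RIP over input, STEAP3 ranged from -0.521 to 0.167 (without LNCaP), FOLH1 from -0.185 to 0.00619 (without 22Rv1) and SLC45A3 from -0.0818 (without 22Rv1) to 0.184. For intron DHT, STEAP3 ranged from -0.311 (without 22Rv1) to 0.337 in input and from -0.0398 (without LNCaP) to 0.631 in PSF-RIP. SLC45A3 intron 1 was 0.204 with no filter and -0.760 to 0.00713 (without LNCaP) with a line left out. STEAP2 intron 1 was 0.600 with no filter, 0.0884 with the replicate block and -0.083 to 0.132 (without LNCaP) with a line left out.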
